A study of Mus musculus with 9 samples.

Results

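The ZBTB family was followed in 4T1 cells exposed to MRC nanoparticles with or without red light. Members were chosen by name, as the protein-coding genes whose mouse symbol is Zbtb followed by a digit. Of the 55416 genes counted in every library, 41 met this rule, and 38 of them had enough counts to be tested. No measured value entered the rule, but the family as a whole was selected on results of these data, their raw counts compared between the 3 groups, so the counts of members below describe the family and are not independent evidence about it. One member by name, Zbtb8os, encodes archease, a cofactor of tRNA ligation that is not a BTB zinc finger protein.

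4T1 is a mammary carcinoma cell line from BALB/c mice. MRC+L cells had DMEM with MRC nanoparticles for 12 h and received 660 nm light lasting 3 min, MRC cells had the same medium and particles without light, and PBS cells had DMEM alone. The irradiance was 180 mW/cm2 by the sample characteristics, and the labels do not spell out MRC. None of the 3 groups was given light without particles. Each group had 3 libraries of bulk RNA, and nothing in the labels says that they came from separate cultures, so p-values measure the spread between these libraries, which may be technical. In bulk RNA, fewer cells that express a gene and less of its RNA per cell cannot be told apart.

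ZBTB proteins carry a BTB (POZ) domain at one end and C2H2 zinc fingers at the other. The BTB domain pairs the proteins and recruits corepressors such as NCOR1 and BCOR with histone deacetylases, the fingers bind DNA, and most members that have been studied repress transcription. Some members read methylated CpG, several direct the development of blood lineages, and others act with MYC or p53 in growth control.

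Libraries held 15019765 to 20044166 counts, with a count for 18999 to 20514 genes each. A library stood apart, PBS replicate 2, in which short genes were raised relative to long ones. Its median log2 deviation from the gene means was 1.07 higher for the shortest 20% of genes than for the longest 20%. This gap was -0.26, -0.24 and -0.15 in the MRC+L libraries and -0.09, -0.13 and 0.06 in the MRC libraries. It was 0.12 and -0.22 in PBS replicates 1 and 3. The biological coefficient of variation was 0.172 over all 9 libraries and 0.0821 without PBS replicate 2. ZBTB genes are long, with a median exonic length of 5783 bases over the 38 tested members, against 4121 bases over the 13439 genes tested. Counts are therefore given with and without that library, and so are single values where leaving it out changed a call. Of the epithelial markers, Krt8 and Krt18 were abundant while Epcam stayed at or below 0.311 CPM. The 8 markers summed to 604 to 615 CPM in MRC+L, 680 to 713 CPM in MRC and 1070 to 1920 CPM in PBS libraries. Krt8 and Krt18 were called lower in both comparisons with PBS, and Krt7 and Cdh1 in MRC+L alone (log2 fold change -0.55 and -0.86). Cldn3 was called higher against that direction (0.74 in MRC+L and 0.80 in MRC). Krt19 was not called, and Epcam and Cldn7 were below the filter. Without PBS replicate 2, Cdh1 was also called lower in MRC and Krt19 higher in MRC+L. The 9 leukocyte markers summed to 33.1 to 38.5 CPM in MRC+L, 33.5 to 41.1 CPM in MRC and 27.9 to 45.0 CPM in PBS libraries, with Cd3e and Adgre1 at 0 throughout; of the 2 that were tested, Cd68 was called higher (0.99 in MRC+L and 1.04 in MRC) and Cd14 was not called (-0.53 in MRC+L and -0.38 in MRC). The 7 fibroblast and endothelial markers summed to 75.3 to 86.7 CPM in MRC+L, 79.5 to 96.0 CPM in MRC and 45.5 to 81.7 CPM in PBS libraries. Pdgfra was called higher (0.70 in MRC+L and 0.80 in MRC) and Pdgfrb lower (-1.63 in MRC+L and -1.47 in MRC). Pecam1, at or below 0.950 CPM, was also called higher (2.06 in MRC+L and 1.87 in MRC). Without PBS replicate 2 the MRC call of Pecam1 was lost, and Cdh5 was called lower in MRC+L (-0.79). The part of these marker levels in the ZBTB results was not tested.

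The share of all counts taken by ZBTB genes was higher in every exposed library than in any PBS library. It was 0.1662%, 0.1704% and 0.1601% in the MRC+L libraries and 0.1529%, 0.1546% and 0.1473% in the MRC libraries, against 0.1035%, 0.0778% and 0.1195% in the PBS libraries. PBS replicate 2 had the lowest share. These genes are transcribed at modest levels: the median over tested members was 4.40 CPM (counts scaled to the library total and by TMM factors) per kb of exon, against 6.49 CPM per kb over all tested genes. On that per-length scale Zbtb21 (25.5 CPM per kb in MRC+L and 21.7 in MRC, against 5.73 in PBS), Zbtb7b (19.7 in MRC+L and 20.3 in MRC, against 16.4 in PBS) and Zbtb22 (13.8 in MRC+L and 13.7 in MRC, against 18.7 in PBS) had the highest means over all 9 libraries.

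The filter on low counts left 3 members out of the tests. Zbtb16 (PLZF, a factor of natural killer T cells and spermatogonial stem cells) had no count in any library, which allows up to 3 counts or 0.150 to 0.200 CPM. Zbtb8b had 1 count in 1 MRC+L library and none elsewhere. Zbtb9 had 2 to 10 counts in each library, and 84.4% of its exonic bases are shared with Ggnbp1 on the same strand.

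In MRC+L cells, 18 of the 38 tested members rose and 3 fell against PBS, at an edgeR quasi-likelihood p under 0.05 after Benjamini-Hochberg adjustment over all 13439 genes. Over all genes tested, 21.8% were called higher and 24.5% lower in the same comparison. The median log2 fold change was 0.55 over the members and -0.03 over all genes, and 76.3% of members, against 48.2% of all genes, had a positive value. A rise of at least 2-fold was called for 8 members, where 8.28% of all genes had one, and a fall of that size for 1, where 10.4% of all genes had one.

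In MRC cells without light, 18 members rose and 2 fell against PBS, where 17.8% of all genes were called higher and 19.8% lower. The median log2 fold change was 0.52 over members and -0.03 over all genes, with the same shares of positive values as in MRC+L cells. A rise of at least 2-fold was called for 7 members, where 5.91% of all genes had one, and no member had a called fall of that size, which 8.14% of all genes had. Both comparisons use the same PBS libraries, so they are not separate evidence, and their values are given side by side. Of the members called higher, 17 were called in both comparisons, Zbtb32 with MRC alone and Zbtb41 with MRC+L alone. Of those called lower, Zbtb22 and Zbtb45 were called in both and Zbtb42 with MRC+L alone.

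Without PBS replicate 2 the counts of called members grew, and none of the calls was lost. In MRC+L cells 23 members were then higher and 5 lower (27.4% and 28.3% of all genes), with a median log2 fold change of 0.51. In MRC cells 23 were higher and 6 lower (24.7% and 26% of all genes), with a median of 0.42. The count of lower members in MRC cells moved most. Called changes of at least 2-fold became fewer without that library. Such a rise was called for 5 members in MRC+L and 6 in MRC, and such a fall for 0 in both. Of 13747 genes, 1086 then had such a rise and 1268 such a fall in MRC+L, and 830 and 1062 in MRC. The members added as lower were Zbtb4, Zbtb26, Zbtb33 and Zbtb42 in MRC cells and Zbtb4 and Zbtb12 in MRC+L cells. Those added as higher were Zbtb2, Zbtb24, Zbtb25 and Zbtb48 in both, with Zbtb37 in MRC+L cells and Zbtb41 in MRC cells. Leaving out any other single library gave 15 to 17 higher and 2 to 4 lower members for MRC+L (16.1% to 25.8% and 17.9% to 28.1% of all genes). For MRC it gave 13 to 21 higher and 2 or 3 lower (12.2% to 22.0% and 13.6% to 23.5% of all genes).

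The zinc finger genes named Zfp, a larger class that includes the BTB gene Zfp131, were set beside the ZBTB genes. Of 325 Zfp genes tested, 115 were called higher and 24 lower in MRC+L cells (21.8% and 24.5% of all genes), with a median log2 fold change of 0.33. In MRC cells 101 were called higher and 15 lower (17.8% and 19.8% of all genes), with a median of 0.27. Of 326 tested without PBS replicate 2, 118 were higher and 35 lower in MRC+L (27.4% and 28.3% of all genes), with a median of 0.22. In MRC 110 were then higher and 35 lower (24.7% and 26% of all genes), with a median of 0.19. Both classes thus had a median above 0, and the difference between them was not tested.

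**Figure D1:**
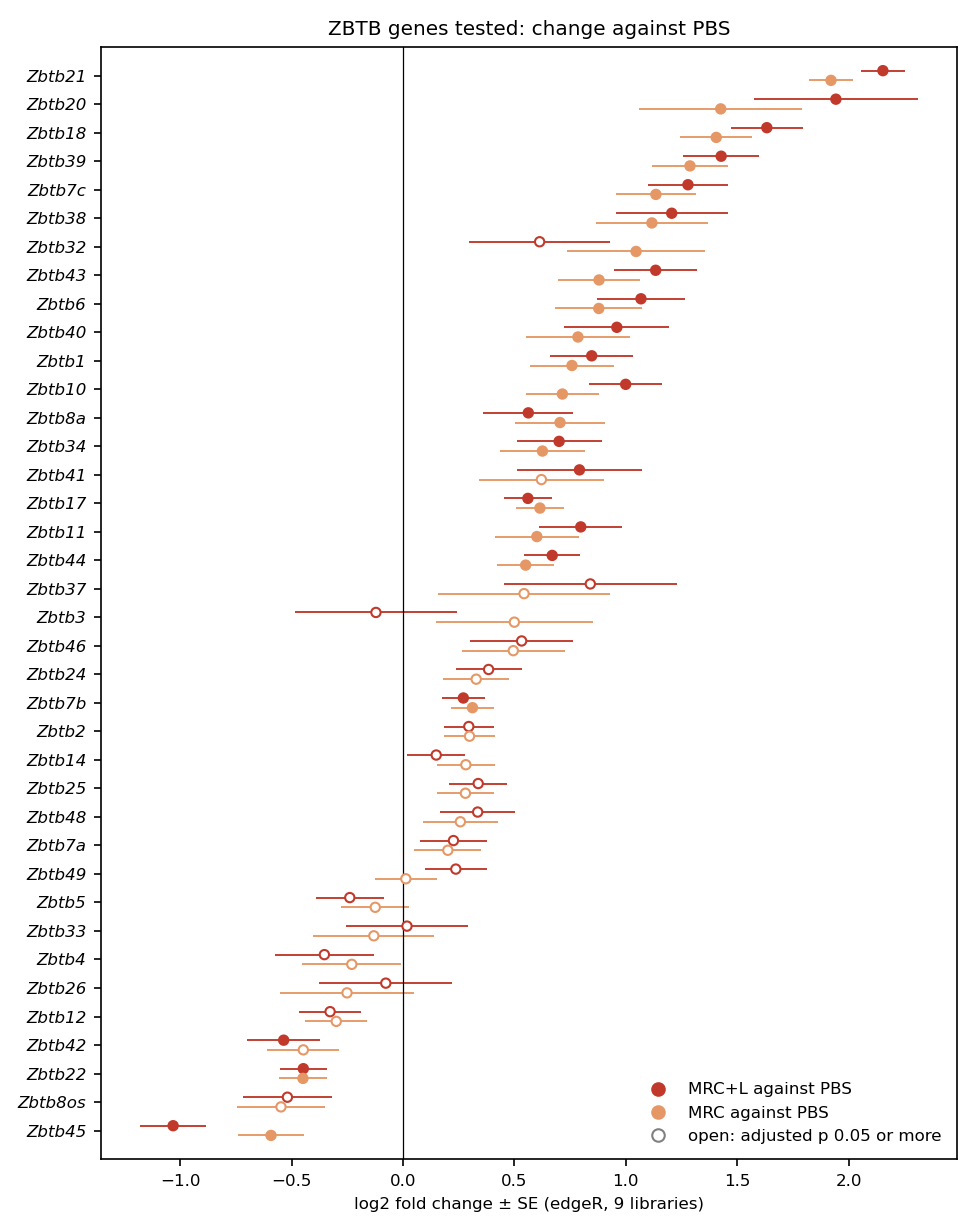
Log2 fold change against PBS of each of the 38 tested ZBTB genes (x axis, log2 units, bars ± 1 SE from edgeR over 9 libraries), in MRC+L (red) and MRC (orange); filled points have an adjusted p under 0.05. Zbtb21 stands at the top with 2.15 in MRC+L and 1.92 in MRC, and Zbtb45 at the bottom with -1.03 in MRC+L and -0.59 in MRC.

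Zbtb21 (also called ZNF295, a partner of the repressor encoded by Zbtb14) had the largest change of the family. Its level was 157, 165 and 163 CPM in MRC+L and 145, 131 and 136 CPM in MRC, against 36.0, 34.3 and 38.5 CPM in PBS libraries. Every exposed library stood far above every PBS library, and the PBS libraries lay close together. The log2 fold change was 2.15 ± 0.10 (SE) in MRC+L (edgeR adjusted p = 8.40e-07) and 1.92 ± 0.10 in MRC (edgeR adjusted p = 1.77e-06). Without PBS replicate 2 these were 2.11 in MRC+L and 1.88 in MRC. The gene lies at chr16:97744557-97763822, minus strand of GRCm39.

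The promoters of 4 members are shown to set the DNA at the start sites of the member that rose most, Zbtb21, and of another raised member with the same cAMP response element, Zbtb11, beside those of the members that fell in both comparisons, Zbtb45 and Zbtb22. Sequences are from RefSeq on GRCm38.p6, 250 bases before and 50 after the annotated start, which is position 251 of the window. Capitals mark the cAMP response element TGACGTCA, the E-box CACGTG and the CCAAT box.
Zbtb21 (chr16:97962573-97962872, minus strand): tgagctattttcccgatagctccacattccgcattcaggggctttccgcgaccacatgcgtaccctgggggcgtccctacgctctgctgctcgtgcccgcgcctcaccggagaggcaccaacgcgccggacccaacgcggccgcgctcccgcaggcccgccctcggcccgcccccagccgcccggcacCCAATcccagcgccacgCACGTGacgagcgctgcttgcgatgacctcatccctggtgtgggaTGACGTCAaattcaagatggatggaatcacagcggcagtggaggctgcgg
Zbtb11 (chr16:55973554-55973853, plus strand): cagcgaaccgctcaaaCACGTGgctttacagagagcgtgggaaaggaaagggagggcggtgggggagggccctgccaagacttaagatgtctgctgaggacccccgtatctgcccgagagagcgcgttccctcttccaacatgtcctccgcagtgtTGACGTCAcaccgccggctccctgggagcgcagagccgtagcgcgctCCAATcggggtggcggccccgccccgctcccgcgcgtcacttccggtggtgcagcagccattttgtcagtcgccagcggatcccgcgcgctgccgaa
Zbtb45 (chr7:13009803-13010102, minus strand): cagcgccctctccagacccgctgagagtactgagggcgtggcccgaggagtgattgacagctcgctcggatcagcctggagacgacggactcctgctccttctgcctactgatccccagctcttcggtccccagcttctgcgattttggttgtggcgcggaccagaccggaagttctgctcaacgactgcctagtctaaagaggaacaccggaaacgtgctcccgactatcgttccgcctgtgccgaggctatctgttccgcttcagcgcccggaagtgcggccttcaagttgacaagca
Zbtb22 (chr17:33915926-33916225, plus strand): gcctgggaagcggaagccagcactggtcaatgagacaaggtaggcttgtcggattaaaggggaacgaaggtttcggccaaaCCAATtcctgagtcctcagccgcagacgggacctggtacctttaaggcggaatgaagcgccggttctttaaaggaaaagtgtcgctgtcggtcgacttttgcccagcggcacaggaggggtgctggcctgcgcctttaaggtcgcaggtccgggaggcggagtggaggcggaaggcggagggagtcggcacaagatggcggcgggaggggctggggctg

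In the Zbtb21 window the cAMP response element began at the start site itself, at position 251, with the E-box at 206 and the CCAAT box at 189. In the Zbtb11 window the response element lay at 157, the E-box at 17 and the CCAAT box at 204. A CCAAT box was found at 82 of the Zbtb22 window, and none of the motifs searched was found in the Zbtb45 window. Windows were available for 36 of the 41 members, 49 windows in all. On both strands, TGACGTCA was found in 4.08% of them against 1.79% of 32851 windows of all genes, CACGTG in 12.2% against 7.15%, CCAAT in 30.6% against 37.4%, the palindromic NRF1 site in 6.12% against 0.971%, and an interferon response element in 4.08% against 3.44%. The C/EBP-ATF element TGATGNAA was found in 0% of them against 3.97% of all windows. The antioxidant response core TGACNNNGC, which shares its opening letters with TGACGTCA, was found in 0% against 12.4%. The 4.08% for TGACGTCA is 2 windows, those of Zbtb11 and Zbtb21. Zbtb11 was chosen for that element, so the windows shown are not a comparison of raised with lowered members. The E-box was also found in windows of Zbtb24, Zbtb25 and Zbtb49, which were not called with all 9 libraries. The NRF1 site was in windows of Zbtb17 and Zbtb41. The median GC content was 63.3% in ZBTB windows and 52.7% in all windows, which bears on every motif rich in C and G. These matches are descriptions of letters and do not show that a factor binds.

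Other repressors with known roles, Zbtb20, Zbtb18 and Zbtb10, also rose. Zbtb20, which represses alpha-fetoprotein in liver and shapes hippocampal neurons, had 76.8, 80.4 and 66.1 CPM in MRC+L and 57.9, 54.3 and 43.8 CPM in MRC, against 15.5, 9.12 and 33.5 CPM in PBS libraries. The groups did not overlap, but the PBS libraries were spread widely. The log2 fold change was 1.94 ± 0.37 in MRC+L (edgeR adjusted p = 0.00197) and 1.43 ± 0.36 in MRC (edgeR adjusted p = 0.0119), and 1.61 in MRC+L and 1.09 in MRC without PBS replicate 2. Zbtb20 (chr16:42696244-43462965, plus strand of GRCm39) has the greatest exonic length of the family, 30730 bases.

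Zbtb18 (RP58; chr1:177269917-177278330, plus strand of GRCm39), a repressor needed for cortical neurons and muscle differentiation, had 91.1, 86.8 and 80.5 CPM in MRC+L and 77.4, 75.8 and 67.6 CPM in MRC, against 28.1, 21.1 and 34.2 CPM in PBS libraries. All exposed libraries were above all PBS libraries. The log2 fold change came to 1.63 ± 0.16 (edgeR adjusted p = 3.77e-05) in MRC+L and 1.41 ± 0.16 (edgeR adjusted p = 0.000127) in MRC. Zbtb10, which in human breast cancer cells represses Sp-family transcription factor genes and is a target of a microRNA, had 112, 117 and 114 CPM in MRC+L and 102, 85.1 and 95.3 CPM in MRC, against 58.9, 42.4 and 70.6 CPM in PBS libraries. In log2 units the change was 1.00 ± 0.17 in MRC+L (edgeR adjusted p = 0.000889) and 0.72 ± 0.17 in MRC (edgeR adjusted p = 0.00693). The MRC+L libraries of Zbtb10 were also all above its MRC libraries.

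**Figure D2:**
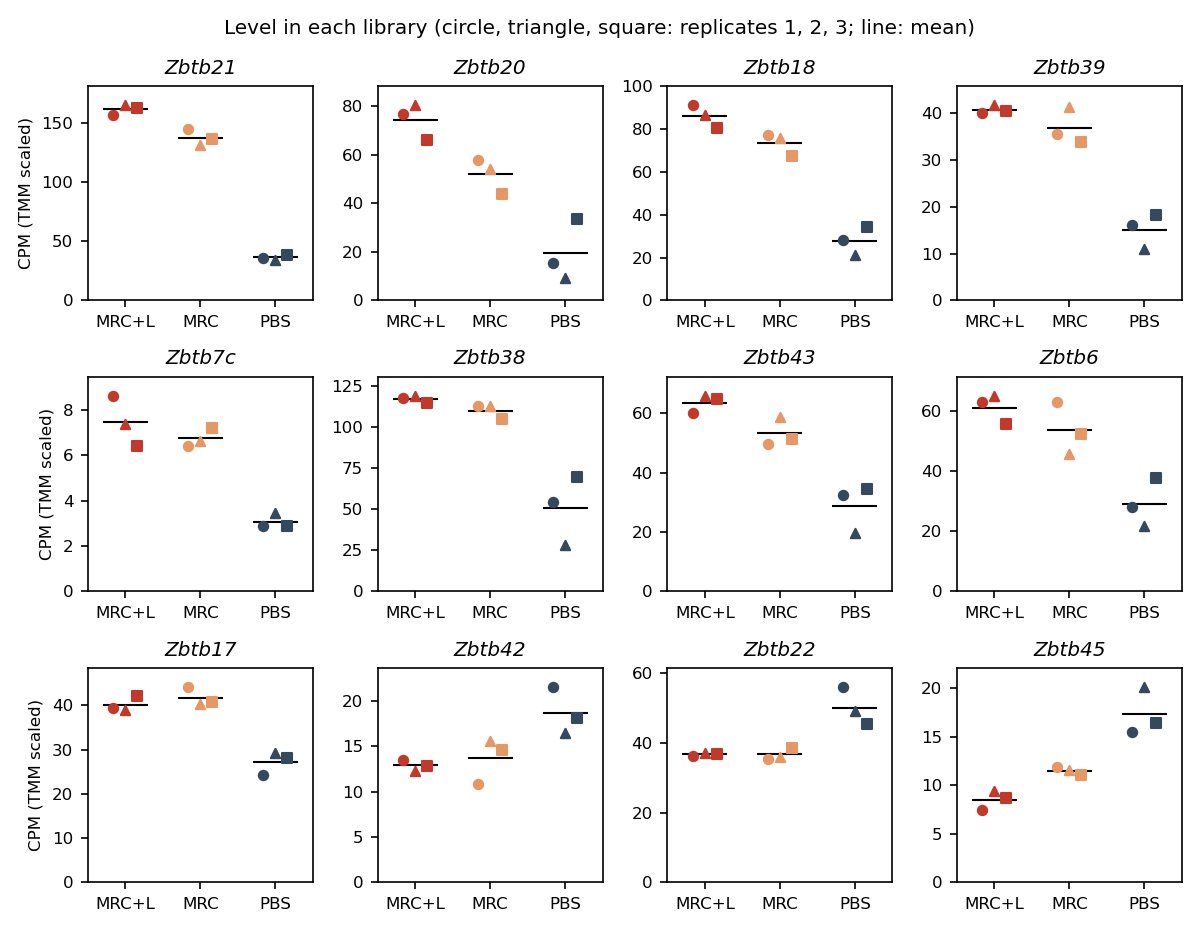
Level of 12 ZBTB genes in each library (y axis, TMM-scaled CPM from 0; circle, triangle and square are replicates 1, 2 and 3; line, mean of 3), with MRC+L left, MRC in the middle and PBS right. PBS replicate 2, the PBS triangle, is the lowest PBS library for Zbtb21, Zbtb20, Zbtb18, Zbtb39, Zbtb38, Zbtb43, Zbtb6 and Zbtb42 and the highest for Zbtb7c, Zbtb17 and Zbtb45.

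Of the members that read methylated DNA, Zbtb38 was called with all 9 libraries, and Zbtb33 and Zbtb4 were not. Zbtb38 (CIBZ), which binds methylated CpG, had 118, 119 and 115 CPM in MRC+L and 113, 113 and 105 CPM in MRC, against 54.7, 28.2 and 69.4 CPM in PBS libraries. The exposed libraries lay close together and above a widely spread PBS group. That made a log2 fold change of 1.21 ± 0.25 in MRC+L (edgeR adjusted p = 0.00336) and 1.12 ± 0.25 in MRC (edgeR adjusted p = 0.00615), and 0.92 in MRC+L and 0.82 in MRC without PBS replicate 2.

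Zbtb33 (Kaiso), the founding methyl-CpG reader of the family, had 24.2, 21.8 and 22.0 CPM in MRC+L and 17.8, 23.2 and 20.4 CPM in MRC, against 26.0, 11.9 and 29.4 CPM in PBS libraries. The groups overlapped, and PBS replicate 2 was the lowest library of all. The log2 fold change was 0.02 ± 0.27 in MRC+L (edgeR adjusted p = 0.964) and -0.13 ± 0.27 in MRC (edgeR adjusted p = 0.737). Without that library the values were -0.29 in MRC+L (edgeR adjusted p = 0.0534) and -0.44 in MRC (edgeR adjusted p = 0.00508), so the call for MRC depends on it. Zbtb4, which also binds methylated CpG, had 25.4, 19.0 and 19.1 CPM in MRC+L and 20.9, 26.2 and 22.1 CPM in MRC, against 30.4, 17.8 and 32.9 CPM in PBS libraries. It too overlapped between groups with PBS replicate 2 lowest. The log2 fold change of Zbtb4 was -0.35 ± 0.22 in MRC+L (edgeR adjusted p = 0.216) and -0.23 ± 0.22 in MRC (edgeR adjusted p = 0.445), and -0.58 in MRC+L (edgeR adjusted p = 0.00095) and -0.46 in MRC (edgeR adjusted p = 0.00606) without that library.

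Zbtb24, whose human counterpart is mutated in a syndrome of immunodeficiency with centromeric instability and which activates Cdca7, had 15.7, 17.2 and 16.6 CPM in MRC+L and 16.3, 16.6 and 14.6 CPM in MRC, against 12.0, 15.2 and 10.7 CPM in PBS libraries. The MRC+L libraries were above the PBS libraries and the MRC libraries overlapped them. Its log2 fold change was 0.38 ± 0.15 in MRC+L (edgeR adjusted p = 0.056) and 0.33 ± 0.15 in MRC (edgeR adjusted p = 0.106). Both passed the threshold without PBS replicate 2 (edgeR adjusted p = 0.00171 in MRC+L and 0.00502 in MRC). Zbtb2, known from mouse embryonic stem cells as a reader of unmethylated CpG islands, had 21.8, 22.7 and 23.2 CPM in MRC+L and 24.1, 23.7 and 20.1 CPM in MRC, against 17.6, 18.4 and 19.2 CPM in PBS libraries. The groups did not overlap, yet the edgeR adjusted p was 0.0549 in MRC+L and 0.0613 in MRC, and 0.0427 in MRC+L and 0.0488 in MRC without PBS replicate 2.

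Among members linked to MYC and p53, Zbtb17 and Zbtb7c rose. Zbtb17 (MIZ1), the zinc finger partner through which MYC represses genes, had 39.5, 38.9 and 42.0 CPM in MRC+L and 44.0, 40.2 and 40.8 CPM in MRC, against 24.2, 29.2 and 28.2 CPM in PBS libraries. All exposed libraries stood above all PBS libraries. The log2 fold change came to 0.56 ± 0.11 in MRC+L (edgeR adjusted p = 0.00215) and 0.61 ± 0.11 in MRC (edgeR adjusted p = 0.00158), and it was 0.62 in MRC+L and 0.66 in MRC without PBS replicate 2. Zbtb7c, which binds p53 and represses Cdkn1a, had 8.59, 7.36 and 6.39 CPM in MRC+L and 6.40, 6.64 and 7.19 CPM in MRC, against 2.87, 3.47 and 2.86 CPM in PBS libraries. Its level was low but the groups were well apart, with a log2 fold change of 1.28 ± 0.18 in MRC+L (edgeR adjusted p = 0.000327) and 1.14 ± 0.18 in MRC (edgeR adjusted p = 0.000848). Zbtb5, another repressor of Cdkn1a, had 14.0, 14.7 and 12.7 CPM in MRC+L and 12.5, 18.0 and 14.2 CPM in MRC, against 17.1, 14.9 and 16.8 CPM in PBS libraries, and was not called (edgeR adjusted p = 0.224 in MRC+L and 0.55 in MRC). Its MRC libraries overlapped the PBS libraries, and its MRC+L libraries lay just below them. Zbtb14, a repressor of the Myc promoter, and Zbtb49, which activates human CDKN1A, were not called either: their log2 fold changes were 0.15 ± 0.13 and 0.24 ± 0.14 in MRC+L and 0.28 ± 0.13 and 0.01 ± 0.14 in MRC.

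The members known for directing lymphoid and myeloid lineages ranged widely in level in these carcinoma cells. Zbtb7b (ThPOK, which commits T cells to the CD4 lineage) was abundant, with 111, 112 and 107 CPM in MRC+L and 107, 122 and 111 CPM in MRC, against 96.5, 86.2 and 91.6 CPM in PBS libraries. The groups did not overlap, but the shift was small, with a log2 fold change of 0.27 ± 0.10 in MRC+L (edgeR adjusted p = 0.0404) and 0.31 ± 0.10 in MRC (edgeR adjusted p = 0.0271). Leaving out single libraries brought the edgeR adjusted p to at most 0.12 for MRC+L and 0.0991 for MRC; the call for MRC was lost without MRC replicate 2 or 3, and that for MRC+L without any MRC+L library, PBS replicate 1 or 3, or MRC replicate 1 or 3. Its paralogue Zbtb7a (LRF), a repressor of fetal globin and of glycolysis genes, had 59.3, 66.4 and 55.6 CPM in MRC+L and 57.5, 64.2 and 56.4 CPM in MRC, against 54.0, 40.1 and 60.9 CPM in PBS libraries. Those groups overlapped (edgeR adjusted p = 0.241 in MRC+L and 0.323 in MRC).

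Zbtb1, required for lymphoid development, averaged 66.4 ± 6.40 CPM in MRC+L and 62.4 ± 1.87 CPM in MRC, against 36.9 ± 11.0 CPM in PBS (SD, n = 3 each). It rose in both, with a log2 fold change of 0.85 ± 0.19 in MRC+L (edgeR adjusted p = 0.00454) and 0.76 ± 0.19 in MRC (edgeR adjusted p = 0.00974). Zbtb32 (ROG), a repressor of GATA factors in T cells, had 1.08, 1.61 and 1.24 CPM in MRC+L and 1.52, 1.92 and 1.83 CPM in MRC, against 0.627, 0.941 and 0.996 CPM in PBS libraries. At about 1 to 2 CPM all exposed libraries were above the PBS libraries, but the call was made in MRC alone (log2 fold change 1.05 ± 0.31, edgeR adjusted p = 0.0235, against 0.61 ± 0.32 and 0.139 in MRC+L). The test of MRC+L against MRC itself gave a log2 difference of -0.43 ± 0.30 (edgeR adjusted p = 0.988), and the MRC call was lost in the fits that dropped PBS 1, MRC 2 or MRC 3 (edgeR adjusted p up to 0.0907). Zbtb46, which marks classical dendritic cells, had 4.16, 4.02 and 4.44 CPM in MRC+L and 5.26, 4.02 and 3.08 CPM in MRC, against 2.61, 2.82 and 3.30 CPM in PBS libraries and was not called (edgeR adjusted p = 0.0822 in MRC+L and 0.116 in MRC).

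Zbtb11, which in zebrafish is needed for neutrophil development, had 67.2, 68.0 and 65.6 CPM in MRC+L and 62.9, 58.9 and 53.4 CPM in MRC, against 41.7, 26.1 and 47.7 CPM in PBS libraries. The groups did not overlap. In log2 units the change was 0.80 ± 0.19 in MRC+L (edgeR adjusted p = 0.00627) and 0.60 ± 0.19 in MRC (edgeR adjusted p = 0.0288). Without PBS replicate 2 it was 0.58 in MRC+L and 0.38 in MRC, still called, and the MRC call was lost in the fits that dropped PBS 1, MRC 1 or MRC 2 (edgeR adjusted p up to 0.0981). Zbtb48 (TZAP), which binds telomeric repeats and limits telomere length, had 14.6, 15.8 and 16.7 CPM in MRC+L and 14.3, 15.9 and 14.4 CPM in MRC, against 12.2, 15.5 and 9.65 CPM in PBS libraries. PBS replicate 2 was its highest PBS library and lay within the exposed groups, and the edgeR adjusted p was 0.129 in MRC+L and 0.258 in MRC with that library, and 0.00382 in MRC+L and 0.0141 in MRC without it.

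Several of the raised members have few known functions. Zbtb39 had 40.1, 41.6 and 40.4 CPM in MRC+L and 35.6, 41.3 and 33.9 CPM in MRC, against 16.1, 11.1 and 18.2 CPM in PBS libraries, with a log2 fold change of 1.43 ± 0.17 in MRC+L (edgeR adjusted p = 0.000124) and 1.29 ± 0.17 in MRC (edgeR adjusted p = 0.000301). Zbtb43 had 60.2, 65.7 and 64.7 CPM in MRC+L and 49.7, 58.6 and 51.4 CPM in MRC, against 32.5, 19.8 and 34.5 CPM in PBS libraries, with a log2 fold change of 1.13 ± 0.18 in MRC+L (edgeR adjusted p = 0.000824) and 0.88 ± 0.18 in MRC (edgeR adjusted p = 0.00432). Zbtb6 had 62.8, 64.8 and 55.7 CPM in MRC+L and 63.0, 45.5 and 52.3 CPM in MRC, against 28.1, 21.6 and 37.8 CPM in PBS libraries, with a log2 fold change of 1.07 ± 0.20 in MRC+L (edgeR adjusted p = 0.00162) and 0.88 ± 0.20 in MRC (edgeR adjusted p = 0.00576). For all 3 genes every exposed library was above every PBS library, and the calls held whichever single library was left out.

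The remaining raised members were Zbtb40, Zbtb44, Zbtb34, Zbtb8a and Zbtb41. Zbtb40 averaged 49.5 ± 3.22 CPM in MRC+L and 43.9 ± 6.99 CPM in MRC, against 25.4 ± 8.72 CPM in PBS (SD, n = 3 each), and Zbtb44 averaged 70.8 ± 7.50 CPM in MRC+L and 65.2 ± 4.33 CPM in MRC, against 44.5 ± 5.90 CPM in PBS. Their log2 fold changes were 0.96 ± 0.24 and 0.67 ± 0.13 in MRC+L and 0.79 ± 0.23 and 0.55 ± 0.13 in MRC (edgeR adjusted p = 0.00803 and 0.00196 in MRC+L, 0.0246 and 0.00697 in MRC). Zbtb34 averaged 27.1 ± 2.25 CPM in MRC+L and 25.7 ± 2.98 CPM in MRC, against 16.6 ± 4.47 CPM in PBS, with log2 fold changes of 0.70 ± 0.19 in MRC+L (edgeR adjusted p = 0.0134) and 0.63 ± 0.19 in MRC (edgeR adjusted p = 0.0265). The MRC values of Zbtb40 and Zbtb34 were 0.52 and 0.42 without PBS replicate 2, and their MRC calls were lost without MRC replicate 1 or 2 (edgeR adjusted p up to 0.0881 and 0.101), as was that of Zbtb34 in MRC+L without MRC+L replicate 2 (edgeR adjusted p = 0.0516). Zbtb8a averaged 6.94 ± 1.05 CPM in MRC+L and 7.68 ± 0.594 CPM in MRC, against 4.71 ± 1.06 CPM in PBS, with log2 fold changes of 0.56 ± 0.20 in MRC+L (edgeR adjusted p = 0.043) and 0.70 ± 0.20 in MRC (edgeR adjusted p = 0.0198). Its calls were also lost in leave-one-out fits: without any 1 of 7 libraries (the exceptions being PBS replicate 2 and MRC+L replicate 2) for MRC+L, and without PBS replicate 1 or MRC replicate 1 for MRC (edgeR adjusted p up to 0.149 for MRC+L and 0.0761 for MRC). Zbtb41 had 124, 126 and 113 CPM in MRC+L and 108, 106 and 108 CPM in MRC, against 70.6, 36.5 and 102 CPM in PBS libraries. Its PBS libraries differed more from each other than the exposed groups differed from PBS replicate 3; it was called in MRC+L (log2 fold change 0.79 ± 0.28, edgeR adjusted p = 0.0402) and not in MRC (0.62 ± 0.28, edgeR adjusted p = 0.105). Without PBS replicate 2 its log2 fold change was 0.48 in MRC+L and 0.31 in MRC, both called, and leaving out any library other than PBS replicate 2 or 3 ended the MRC+L call (edgeR adjusted p up to 0.101).

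In MRC+L cells 3 members fell, and 2 of these in MRC cells. Zbtb45, a regulator of glial differentiation in mice, had 7.40, 9.37 and 8.64 CPM in MRC+L and 11.8, 11.6 and 11.0 CPM in MRC, against 15.5, 20.1 and 16.4 CPM in PBS libraries. The 3 groups were fully apart, with MRC+L lowest. That made a log2 fold change of -1.03 ± 0.15 in MRC+L (edgeR adjusted p = 0.000386) and -0.59 ± 0.15 in MRC (edgeR adjusted p = 0.00984).

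Zbtb22 (BING1), which lies in the major histocompatibility region, had 36.4, 37.1 and 36.7 CPM in MRC+L and 35.5, 36.0 and 38.6 CPM in MRC, against 55.9, 49.0 and 45.4 CPM in PBS libraries. The exposed libraries were nearly alike and all below PBS. Its log2 fold change was -0.45 ± 0.11 in MRC+L (edgeR adjusted p = 0.00669) and -0.45 ± 0.11 in MRC (edgeR adjusted p = 0.00788). On the same strand it shares 149 exonic bases, 5.57% of its exons, with the neighbouring gene Tapbp, whose counts were 1205 to 6215, so its counts are uncertain to that extent.

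Zbtb42, a factor of skeletal muscle, had 13.5, 12.3 and 12.8 CPM in MRC+L and 10.8, 15.6 and 14.6 CPM in MRC, against 21.5, 16.5 and 18.1 CPM in PBS libraries. Neither exposed group overlapped PBS, with a call in MRC+L (log2 fold change -0.54 ± 0.16, edgeR adjusted p = 0.022) and a miss in MRC (-0.45 ± 0.16, edgeR adjusted p = 0.0527, and 0.00437 without PBS replicate 2). The MRC+L call was lost in the fits that dropped PBS 1, MRC+L 2 or MRC+L 3 (edgeR adjusted p up to 0.0863). Zbtb8os, the archease gene, had 11.8, 12.8 and 13.4 CPM in MRC+L and 11.3, 12.6 and 13.3 CPM in MRC, against 14.6, 24.7 and 15.1 CPM in PBS libraries. All exposed libraries were below PBS, but PBS replicate 2 stood high, and the edgeR adjusted p was 0.0554 in MRC+L and 0.0532 in MRC with it, and 0.146 in MRC+L and 0.105 in MRC without it.

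The 5 tested members not yet described were not called in either comparison. Zbtb37 averaged 32.2 ± 1.73 CPM in MRC+L and 26.2 ± 1.35 CPM in MRC, against 18.0 ± 11.8 CPM in PBS (SD, n = 3 each), Zbtb26 15.9 ± 1.60 CPM in MRC+L and 14.1 ± 2.12 CPM in MRC, against 16.8 ± 8.11 CPM in PBS, and Zbtb25 22.2 ± 1.65 CPM in MRC+L and 21.3 ± 1.47 CPM in MRC, against 17.6 ± 2.22 CPM in PBS. Zbtb12 averaged 17.2 ± 2.56 CPM in MRC+L and 17.6 ± 2.07 CPM in MRC, against 21.6 ± 0.301 CPM in PBS, and Zbtb3 1.27 ± 0.342 CPM in MRC+L and 1.95 ± 0.766 CPM in MRC, against 1.38 ± 0.249 CPM in PBS. PBS replicate 2 was the lowest PBS library for Zbtb37 and Zbtb26, at 6.59 and 9.12 CPM. With it left out, Zbtb37 was called higher in MRC+L (log2 fold change 0.45, edgeR adjusted p = 0.0194), Zbtb12 lower in MRC+L (-0.33, edgeR adjusted p = 0.0442) and Zbtb26 lower in MRC (-0.55, edgeR adjusted p = 0.0102). Zbtb25 was then called higher in both, at 0.43 in MRC+L (edgeR adjusted p = 0.00496) and 0.37 in MRC (edgeR adjusted p = 0.0157).

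Between MRC+L and MRC, edgeR over all 9 libraries called 0 of 38 members and 0 of 13439 genes (0% higher and 0% lower), with 2 members and 573 genes at an unadjusted p under 0.05. Those 2 members were Zbtb21, with a log2 difference of 0.23 ± 0.09, and Zbtb45, with -0.44 ± 0.15 (edgeR adjusted p = 0.988 for each). DESeq2 called 0 members, against 0.0893% of genes higher and 0.0968% lower, and limma voom with sample quality weights called 1 member, Zbtb20, higher, where 1.06% of genes were called higher and 0.885% lower. The median log2 difference was 0.08 over members and -0.01 over all genes.

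Fitted to the 6 MRC+L and MRC libraries alone, where 3.13% of 12955 genes were called higher and 1.91% lower, edgeR called 3 members higher in MRC+L and none lower. These were Zbtb20 at 0.52 ± 0.09 (edgeR adjusted p = 0.00227), Zbtb10 at 0.29 ± 0.07 (edgeR adjusted p = 0.0201) and Zbtb21 at 0.24 ± 0.06 (edgeR adjusted p = 0.0329), in log2 units with SE. For each of them all MRC+L libraries were above all MRC libraries. Zbtb37 (0.30 ± 0.09, edgeR adjusted p = 0.0526) and Zbtb43 (0.26 ± 0.08, edgeR adjusted p = 0.0588) came next, and Zbtb45 at -0.44 ± 0.14 had an edgeR adjusted p of 0.0726. The 6-library fit has no correction for gene length, and the MRC+L libraries leaned more to long genes. With a length trend removed over all 9 libraries, the difference was 0.28 for Zbtb20 and 0.13 for Zbtb37. It was 0.25 for Zbtb10, 0.22 for Zbtb21 and 0.26 for Zbtb43 there, and none of these was called. With PBS replicate 2 left out and the other 8 libraries fitted together, edgeR called 0 members, against 0.313% of genes higher and 0.335% lower, with 8 members at an unadjusted p under 0.05.

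**Figure D3:**
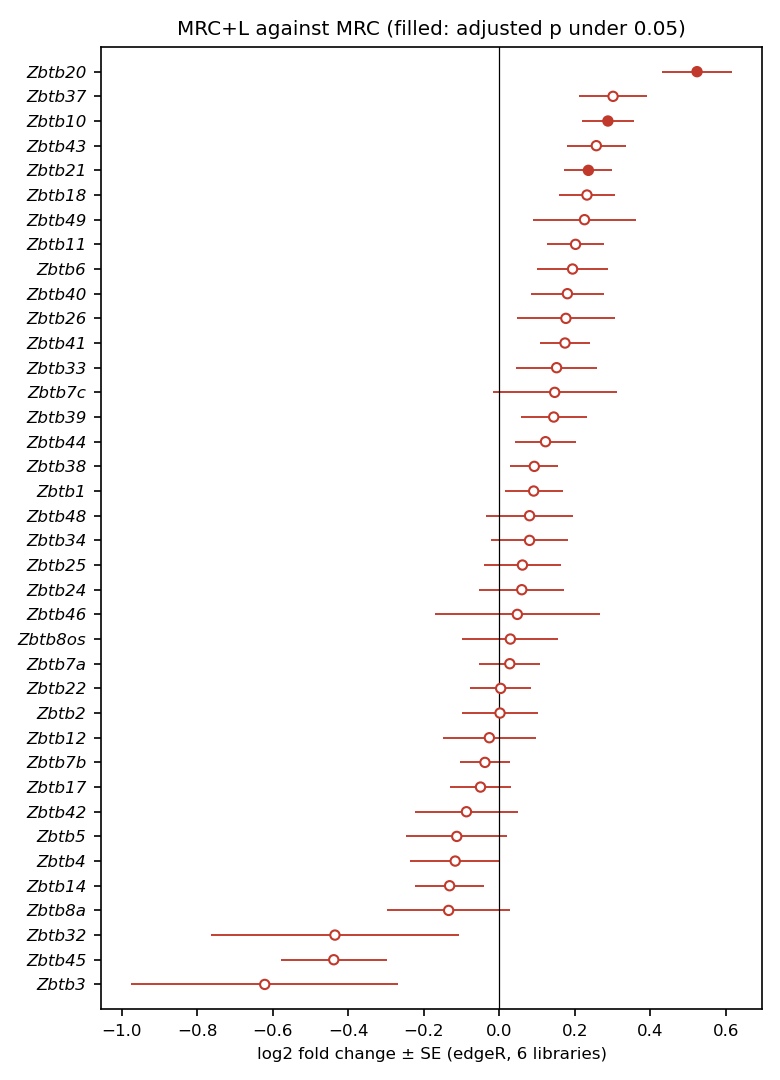
Log2 difference of MRC+L from MRC for the 38 tested ZBTB genes (x axis, log2 units, bars ± 1 SE), from edgeR fitted to the 6 libraries of these groups; filled points have an adjusted p under 0.05. Zbtb20, Zbtb10 and Zbtb21 are the filled points, and Zbtb3, with under 3 CPM in every library, has the widest bars at the lower end.

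With all 9 libraries, longer ZBTB genes tended to have higher (more positive) log2 fold changes. Over the 38 tested members, Spearman's rho between exonic length and log2 fold change was 0.44 for MRC+L against PBS and 0.30 for MRC against PBS, beside 0.21 and 0.18 over all genes. Without PBS replicate 2 these were 0.26 and 0.09 over members and 0.05 and -0.01 over all genes. For MRC+L against MRC, in which no PBS library is compared, rho was 0.61 over members and 0.23 over all genes. The points share their libraries and are genes rather than replicates, so these are descriptions. When a smooth trend of log count on exonic length was removed from each library, 20 members were higher and 4 lower in MRC+L (25.2% and 26.5% of all genes) and 20 higher and 3 lower in MRC (22% and 23.4%), no call was lost, and the median log2 fold change was 0.47 and 0.38. Between MRC+L and MRC that fit called 0 members, against 0.0223% of genes higher and 0.00744% lower. Under it Zbtb21 stood at 2.07 and 1.85 and Zbtb18 at 1.57 and 1.36 in MRC+L and MRC. Long members moved more: Zbtb20 went from 1.94 to 1.42 in MRC+L and from 1.43 to 1.135 in MRC. Zbtb38 (11733 bases) went from 1.21 to 0.96 in MRC+L and from 1.12 to 0.97 in MRC. The short Zbtb8a (2321 bases) went the other way, from 0.56 to 0.77 in MRC+L and from 0.70 to 0.85 in MRC.

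**Figure D4:**
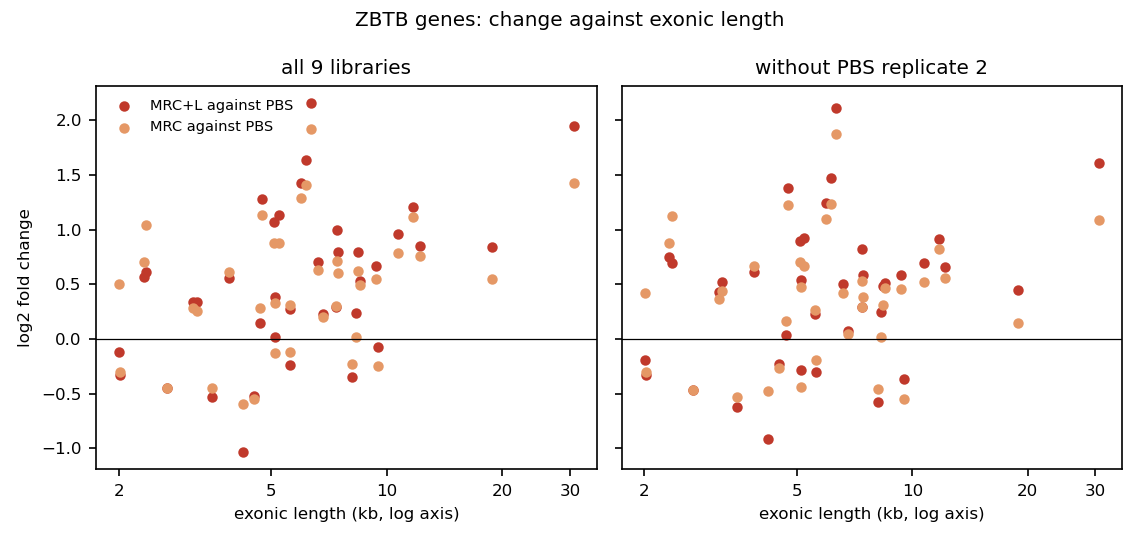
Log2 fold change against PBS (y axis) by exonic length (x axis, kb, log scale) for the 38 tested ZBTB genes in MRC+L (red) and MRC (orange), with all 9 libraries (left) and without PBS replicate 2 (right). The rightmost gene is Zbtb20 with 30730 bases, and the relation is flatter on the right, where rho is 0.26 for MRC+L and 0.09 for MRC.

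Some members lie beside each other in the genome (GRCm39). Zbtb25 and Zbtb1 are transcribed away from each other on chromosome 12 with 664 bases between them; Zbtb1 rose in both comparisons, and Zbtb25 had log2 fold changes of 0.34 ± 0.13 in MRC+L and 0.28 ± 0.13 in MRC (edgeR adjusted p = 0.0547 in MRC+L and 0.113 in MRC). Zbtb34 and Zbtb43, on the minus strand of chromosome 2 and 18963 bases apart, rose together. Zbtb6 and Zbtb26 overlap on the same strand of chromosome 2 and share 449 exonic bases, and Zbtb6 rose while Zbtb26, which was not called, had a log2 fold change of -0.08 ± 0.30 in MRC+L and -0.25 ± 0.30 in MRC. On chromosome 4, Zbtb8a rose and Zbtb8os, which overlaps it by 264 exonic bases on the opposite strand, was not called. No strand option is recorded for the counting, so counts in shared bases are uncertain, also for Zbtb17 (41 bases shared with Spen), Zbtb11 (238 bases with Pcnp), Zbtb21 (86 bases with C2cd2) and Zbtb37 (15.6% of its exons with Serpinc1).

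The BTB zinc finger family also holds 8 genes with other names. Of 6 tested, 4 were called higher and 0 lower in both comparisons, where 21.8% of all genes were called higher in MRC+L and 17.8% in MRC, with a median log2 fold change of 0.72 in MRC+L and 0.61 in MRC. Bcl6, the repressor that directs germinal centre B cells, had 44.7, 43.4 and 47.0 CPM in MRC+L and 42.7, 48.8 and 43.5 CPM in MRC, against 24.1, 21.1 and 25.9 CPM in PBS libraries (edgeR adjusted p = 0.00014 in MRC+L and 0.000187 in MRC). Zfp131 had log2 fold changes of 1.03 ± 0.12 in MRC+L and 0.83 ± 0.12 in MRC, Hic2 of 0.82 ± 0.16 in MRC+L and 0.63 ± 0.16 in MRC and Mynn of 0.61 ± 0.13 in MRC+L and 0.58 ± 0.13 in MRC. Patz1 and Gzf1 were not called (-0.05 and -0.08 in MRC+L, 0.05 and -0.09 in MRC), and Hic1 and Bcl6b were below the filter. Gzf1 was called lower in both without PBS replicate 2, with a log2 fold change of -0.23 in MRC+L (edgeR adjusted p = 0.0495) and -0.25 in MRC (edgeR adjusted p = 0.0401). Of 4 BTB factors without C2H2 fingers, Bach1, a haem-sensing repressor of antioxidant genes, rose in both (log2 fold change 1.21 ± 0.19 in MRC+L and 1.04 ± 0.19 in MRC), and Bach2 rose in MRC+L (1.17 ± 0.35, against 0.84 ± 0.35 and edgeR adjusted p = 0.0877 in MRC). Beside them, 21.8% of all genes were called higher in MRC+L and 17.8% in MRC. Nacc1 and Nacc2 were not called, at -0.33 and -0.33 in MRC+L and -0.15 and -0.58 in MRC, but were called lower in both without PBS replicate 2 (-0.45 and -0.57 in MRC+L, -0.28 and -0.83 in MRC). Without that library, 28.3% of all genes were called lower in MRC+L and 26% in MRC.

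The corepressors and deacetylases that BTB domains recruit went both ways. Of 19 tested genes, 2 were called higher (Ctbp2 and Hdac4) and 5 lower (Ctbp1, Hdac1, Hdac3, Hdac7 and Sin3a) in both comparisons, where 21.8% of all genes were called higher and 24.5% lower in MRC+L and 17.8% and 19.8% in MRC, with a median log2 fold change of -0.14 in MRC+L and -0.15 in MRC. Ctbp2 had a log2 fold change of 0.40 ± 0.10 in MRC+L and 0.36 ± 0.10 in MRC, Hdac3 of -0.65 ± 0.15 in MRC+L and -0.56 ± 0.15 in MRC (-0.43 in MRC+L and -0.35 in MRC without PBS replicate 2), and Sin3a of -0.43 ± 0.12 in MRC+L and -0.34 ± 0.12 in MRC. Hdac7 had 62.3, 59.6 and 57.3 CPM in MRC+L and 72.2, 90.1 and 78.5 CPM in MRC, against 186, 149.6 and 167 CPM in PBS libraries (log2 fold change -1.49 ± 0.12 in MRC+L and -1.06 ± 0.12 in MRC). Hdac1 had log2 fold changes of -1.09 ± 0.09 in MRC+L and -0.88 ± 0.09 in MRC, Hdac4 of 1.01 ± 0.21 in MRC+L and 0.80 ± 0.21 in MRC and Ctbp1 of -0.46 ± 0.10 in MRC+L and -0.31 ± 0.10 in MRC. Ncor1 and Cul3, the ubiquitin ligase scaffold that other BTB proteins bind, were not called (0.38 and 0.17 in MRC+L, 0.26 and 0.07 in MRC). Without PBS replicate 2, 3 were higher and 8 lower in MRC+L (27.4% and 28.3% of all genes) and 4 higher and 7 lower in MRC (24.7% and 26% of all genes).

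Genes tied to single members by textbook knowledge were mixed. Of 9 tested MIZ1 partners and targets, 5 were higher and 1 lower in MRC+L (21.8% and 24.5% of all genes). In MRC 4 were higher and 1 lower (17.8% and 19.8% of all genes). Leaving out PBS replicate 2 gave 7 higher and 2 lower in MRC+L (27.4% and 28.3% of all genes) and 5 higher and 2 lower in MRC (24.7% and 26% of all genes). Npm1 was added as higher and Topbp1 as lower in both, and Huwe1 as higher in MRC+L. Myc had 854, 892 and 915 CPM in MRC+L and 825, 798 and 746 CPM in MRC, against 356, 399.8 and 329 CPM in PBS libraries (log2 fold change 1.29 ± 0.11 in MRC+L and 1.13 ± 0.11 in MRC, edgeR adjusted p = 1.47e-05 in MRC+L and 4.68e-05 in MRC). Ambra1 (1.00 ± 0.19 in MRC+L and 0.92 ± 0.19 in MRC) and Mycl (0.71 ± 0.22 in MRC+L and 0.80 ± 0.22 in MRC) rose too, as did Max (0.34 ± 0.11 in MRC+L and 0.33 ± 0.11 in MRC), and Vamp4 fell (-0.63 ± 0.10 in MRC+L and -0.50 ± 0.10 in MRC). Cdkn1a, the cell cycle inhibitor that several members repress, was called higher in MRC+L (0.34 ± 0.11, edgeR adjusted p = 0.0326) and not in MRC (0.11 ± 0.11, edgeR adjusted p = 0.483).

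Of 8 tested genes listed for ZBTB24 and DNA methylation, not all of them methylation genes, 2 were higher and 2 lower in MRC+L, where 21.8% and 24.5% of all genes were. In MRC 3 were higher and 2 lower, where 17.8% and 19.8% of all genes were. Uhrf1 (-1.37 ± 0.13 in MRC+L and -1.18 ± 0.13 in MRC) and Dnmt1 (-0.61 ± 0.17 in MRC+L and -0.63 ± 0.17 in MRC), which maintain methylation, fell. The de novo enzyme gene Dnmt3b rose (0.96 ± 0.18 in MRC+L and 0.84 ± 0.18 in MRC). Ostc, which is on the list but is not a DNA methylation gene, rose too (0.51 ± 0.19 in MRC+L and 0.55 ± 0.19 in MRC, and 0.77 in MRC+L and 0.81 in MRC without PBS replicate 2). Hells, a chromatin remodeller, was not called (-0.37 in MRC+L and -0.42 in MRC) but was lower in both without that library (-0.58 in MRC+L, edgeR adjusted p = 6.41e-06, and -0.64 in MRC, edgeR adjusted p = 2.24e-06). Cdca7, the ZBTB24 target, had log2 fold changes of 0.19 ± 0.10 in MRC+L and 0.29 ± 0.10 in MRC (edgeR adjusted p = 0.16 in MRC+L and 0.0498 in MRC).

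Of 7 tested methyl-CpG readers and Kaiso partners, 0 were called higher with all 9 libraries, and 2 were called lower in MRC+L and 1 in MRC. The shares of all genes were 21.8% higher and 24.5% lower in MRC+L, and 17.8% and 19.8% in MRC. Leaving out PBS replicate 2 gave 4 lower in MRC+L, where 28.3% of all genes were. In MRC it gave 1 higher (Mbd3, 0.35, edgeR adjusted p = 0.00326) and 2 lower, where 24.7% and 26% of all genes were. Ctnnd1, which encodes the catenin that binds Kaiso, fell in both (-0.74 ± 0.12 in MRC+L and -0.64 ± 0.12 in MRC) and Mbd2 in MRC+L (-0.44 ± 0.15, and -0.23 without that library). Mbd4 and Tcf7l2 were not called with all 9 libraries (-0.28 and -0.37 in MRC+L, -0.04 and -0.38 in MRC). Without that library Mbd4 was called lower in MRC+L (-0.47, edgeR adjusted p = 0.00281), and Tcf7l2 in MRC+L (-0.50, edgeR adjusted p = 0.0276) and in MRC (-0.51, edgeR adjusted p = 0.0265). Of 8 telomere genes, 1 was called higher and 1 lower in each comparison. Over all genes 21.8% were higher and 24.5% lower in MRC+L, and 17.8% and 19.8% in MRC. The 2 called were Terf2ip at 0.48 ± 0.12 in MRC+L and 0.51 ± 0.12 in MRC, and Acd at -0.44 ± 0.16 in MRC+L and -0.48 ± 0.16 in MRC. The Acd value was -0.22 in MRC+L (edgeR adjusted p = 0.0681) and -0.27 in MRC (edgeR adjusted p = 0.0337) without PBS replicate 2, so its MRC+L call rests on that library. Terf1 and Terf2 were not called (-0.28 and 0.24 in MRC+L, -0.21 and 0.24 in MRC). Terf2 was called higher without it, at 0.32 in MRC+L (edgeR adjusted p = 0.00581) and 0.31 in MRC (edgeR adjusted p = 0.00782). Of 3 listed glycolysis genes that ZBTB7A represses, Slc2a3 was below the filter. Both tested genes, Pfkp (-0.50 ± 0.10 in MRC+L and -0.60 ± 0.10 in MRC) and Pkm (-0.37 ± 0.13 in MRC+L and -0.36 ± 0.13 in MRC, and -0.24 in MRC+L and -0.24 in MRC without PBS replicate 2), fell in both comparisons. Of all genes 24.5% were called lower in MRC+L and 19.8% in MRC.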

How the data were processed

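The 9 libraries, 3 per group, were made from Trizol extracts of 4T1 cells by TruSeq RNA preparation, as the labels' protocols state. The deposited files hold raw counts per gene, made by the authors with featureCounts 2.0.1 over exons of Ensembl release 104 (GRCm39), per the file headers; the aligner is not given in the sources used here. No strand option is recorded and reads with several places were not counted, so overlapping genes and near-identical copies are uncertain. Symbols and biotypes were matched by gene ID to GENCODE M21 and found for 52083 of 55416 IDs (94.0%); 1 non-coding gene with a Zbtb symbol was left out. The members and gene lists were chosen with earlier results of these data known.

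Counts were tested in R 4.3.3 with edgeR 4.0.16 (quasi-likelihood, TMM factors, 1 mean per group, all 9 libraries, prior count 0.125) on 13439 genes, those with at least 10 counts by the edgeR filter and 15 in total. The threshold was 0.05 on the Benjamini-Hochberg adjusted p over all these genes. The fit was tested on simulated data. CPM are TMM-scaled. Values in every library are given for up to 8 called members in each direction with the largest change in each comparison with PBS, for members called between MRC+L and MRC, and for a list of members with known roles; of other lists, the 4 genes lowest in adjusted p are named. Zbtb10, Zbtb41 and the single examples Ctbp2, Sin3a, Hdac3, Max, Cdkn1a, Cdca7, Ncor1, Cul3, Hells, Mbd3, Npm1, Topbp1, Huwe1, Patz1 and Gzf1 fall outside that rule and were chosen after their values were seen. Alternatives were RLE factors, DESeq2 1.42.0, limma 3.58.1 voom with quality weights, other count filters including a minimum count of 50, a loess length correction (span 0.5), a replicate block, 6-library fits, the family without Zbtb8os, and leaving out each library. Same-numbered libraries of different groups did not deviate together. Counts of 3 set the limit for a gene at 0, and that limit covers counting error only. Summaries used Python 3.11.15 (pandas 2.3.3, matplotlib 3.10.9).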

Additional observations from a re-analysis of the deposited data

How the results depend on the processing

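No member changed direction past the threshold under any alternative run. The counts of members higher against PBS (18 for MRC+L, 18 for MRC) were within 1.5 times of these values under every alternative run. They were 15 to 23 for MRC+L (16.1% to 27.4% of all genes) and 13 to 23 for MRC (12.2% to 24.7%) when single libraries were left out. The counts of lower members moved more. Members lower in MRC were 2 in the reported fit, 4 with DESeq2 (22.2% of all genes lower) and 8 with limma voom with quality weights (32.9%). They were 2 to 6 when single libraries were left out (13.6% to 26.0%). Members lower in MRC+L were 3 in the reported fit, 7 with limma voom (37.1%), and 2 to 5 when single libraries were left out (17.9% to 28.3%). The cause was not tested. Members higher in MRC+L against MRC were 0 in the reported fit (0% of all genes), 1 with limma voom (1.06%) and 3 with the 6 libraries alone (3.13%). Same-numbered libraries of different groups deviated together in 0 of 9 pairs at a correlation over 0.1, and 0 libraries correlated best with their own number. No pairing by number was therefore seen, but 3 libraries per group, with PBS replicate 2 apart, cannot exclude one. With the replicate block, 16 members were higher and 3 lower in MRC+L (19.6% and 21.3% of all genes) and 17 higher and 2 lower in MRC (15.3% and 16.5% of all genes), and 0 in either direction between MRC+L and MRC. The median log2 fold change without Zbtb8os was 0.56 for MRC+L and 0.54 for MRC. Over all members and alternatives, single-gene log2 fold changes kept direction and call in 565 of the values for MRC+L against PBS, in 578 for MRC against PBS and in 603 for MRC+L against MRC. Calls were lost in 32 and 21 values and gained in 38 and 38, for MRC+L and MRC against PBS. Depth limits Zbtb3, Zbtb32 and Zbtb46, whose levels were lowest among those tested.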
